A study of Homo sapiens with 10 samples.

Results

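Notch genes were read in MCF10A cells, a non-transformed line of human mammary epithelium, before and after transformation with the G12V HRas oncogene and after a short treatment with Nutlin-3a. The 8 genes were taken by symbol: the receptors NOTCH1, NOTCH2 and NOTCH3, the ligands JAG1, JAG2 and DLL1, and the targets HES1 and HEY1. No measured value entered this rule, but the list was drawn up with earlier results of these data known. All 8 were present among the 26256 genes counted in MCF10A and G12V cells and among the 55736 genes counted in the Nutlin-3a experiment, and all 8 had enough reads to be tested in both. Notch receptors are single-pass membrane proteins that are activated by ligands of the Jagged and Delta-like families on a neighbouring cell. Binding of a ligand allows the receptor to be cleaved by ADAM proteases and then by gamma-secretase, and the released intracellular domain enters the nucleus, where it joins the DNA-binding protein RBPJ and a Mastermind coactivator to switch on genes such as HES1 and HEY1. In the mammary gland the pathway is known for its part in the choice between luminal and basal fates.

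Poly(A) RNA was sequenced from parental MCF10A cells (n = 2), which were untreated, and from G12V cells (n = 2), MCF10A cells that received the G12V HRas oncogene together with a GFP vector by lentiviral transduction, were selected with hygromycin and grew again after an arrest. In a separate experiment parental cells received DMSO (n = 3) or 10 µM Nutlin-3a (n = 3), an inhibitor of the binding of MDM2 to p53, for 4 h. The G12V cells are an introduced and selected population, in which reads from the added and the endogenous HRAS are counted together. Levels are given as counts per 1e6 reads (CPM) on library sizes scaled by TMM, differences as log2 fold changes (log2 FC) with their standard errors, and a gene was called differentially expressed (DE) when its adjusted p lay below 0.05 and its log2 FC beyond 0.5 in either direction in edgeR's quasi-likelihood test across all tested genes. Each experiment was fitted on its own libraries.

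The libraries held 21538593 to 23683975 counts in MCF10A and G12V cells and 15453226 to 17378734 in the Nutlin-3a experiment. HRAS was read first to check the labels, with 72.6 and 65.9 CPM in MCF10A and 631 and 515 CPM in G12V cells, a log2 FC of 3.05 (SE 0.23, adjusted p = 0.00165 by edgeR). For Nutlin-3a the p53 targets CDKN1A and MDM2 served the same end, with log2 FCs of 2.16 (SE 0.13, adjusted p = 5.16e-04 by edgeR) and 2.54 (SE 0.18, adjusted p = 0.00133 by edgeR). Of 6 epithelial markers, 6 exceeded 1 CPM in MCF10A, DMSO and Nutlin-3a cells and 4 did in G12V cells, where KRT14 and CDH1 lay below 1 CPM. The summed level of these markers was 4900 to 5900 CPM in MCF10A and 1360 to 1660 CPM in G12V cells. Of the markers of other cell types, the pan-leukocyte gene PTPRC was at or near 0 in all libraries, CD68 had 12.3 and 12.1 CPM in MCF10A and 37.3 and 72.7 CPM in G12V cells, and KDR had 29.0 CPM in MCF10A replicate 2 against 4.23 to 6.41 CPM in the other libraries of that table. Summed over each list, 5 fibroblast markers had 37.4 to 64.7 CPM in MCF10A and 53.4 to 59.9 CPM in G12V cells, 4 endothelial markers had 8.09 to 32.2 CPM against 7.91 to 8.79 CPM, and 4 immune markers had 30.4 to 49.1 CPM against 59.0 to 112 CPM. With Nutlin-3a the epithelial sum was 3580 to 5880 CPM against 3340 to 5490 CPM in DMSO, and the fibroblast, endothelial and immune sums of both groups overlapped as well. What part these differences had in the values below was not tested, and in bulk RNA fewer cells of a type and less RNA per cell cannot be told apart.

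To compare genes with each other, CPM were divided by the length of each gene's canonical transcript. In MCF10A cells JAG2 stood highest, with a mean of 33.9 CPM per kb, followed by NOTCH1 with 27.7 and HES1 with 22.8, and the ranges of these neighbours overlapped. NOTCH2 with 17.2 and JAG1 with 12.8 CPM per kb came next and stood apart from their neighbours. DLL1 with 2.65, NOTCH3 with 0.933 and HEY1 with 0.377 CPM per kb were far lower, and the ranges of DLL1 and NOTCH3 overlapped. In G12V cells NOTCH2 stood highest with a mean of 24.6 CPM per kb, above JAG2 with 17.0. JAG1 with 9.66, HES1 with 9.44 and NOTCH1 with 8.56 CPM per kb followed with overlapping ranges, and DLL1 was the lowest of the 8 at 0.0524. In DMSO the order ran from JAG1, at a mean of 26.2 CPM per kb, through HES1, NOTCH2 and JAG2 to NOTCH1, at 14.97, and each of these overlapped the next, while JAG1, with 20.7 to 35.1 CPM per kb, lay above all values of JAG2 (14.5 to 19.9) and NOTCH1 (11.1 to 19.7). DLL1, HEY1 and NOTCH3 were again the lowest there, with means of 1.06, 0.788 and 0.364 CPM per kb. In Nutlin-3a the same 3 genes were lowest, at 0.820, 0.661 and 0.560 CPM per kb, and JAG1 and NOTCH1 were highest, at 31.9 and 29.8, with NOTCH1 apart from HES1 at 19.0. DMSO and MCF10A cells are both parental, but they were counted on different annotations in separate experiments, so no test was made between them.

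**Figure D1:**
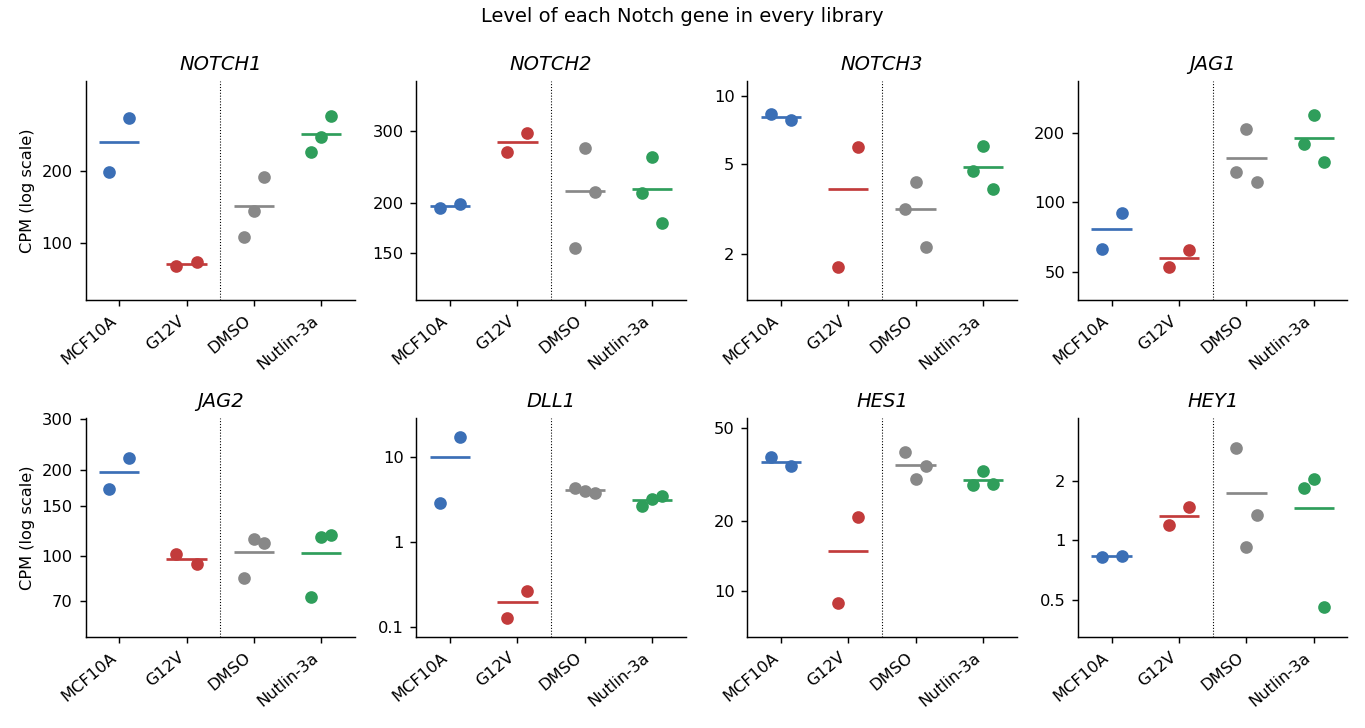
Level of each Notch gene in CPM (log scale, a separate range for each gene) in the 2 MCF10A, 2 G12V, 3 DMSO and 3 Nutlin-3a libraries. Points are libraries in order of their replicate number, bars are group means and the dotted line separates the experiments. NOTCH1 lay at 80.3 and 83.5 CPM in G12V cells, below every other library, and DLL1 at 0.128 and 0.268 CPM.

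In G12V cells, transcripts of NOTCH1 and of the ligands JAG2 and DLL1 fell, while no member rose by the test used. DE genes made up 11.0% of all tested genes, with 5.01% higher and 5.95% lower, and 3 of the 8 Notch genes were DE, all lower. The median log2 FC was -1.0 over the 8 genes and -0.0011 over all tested genes, and the median of the absolute values was 1.0 against 0.36. The groups did not overlap in any of the 8 genes, as in 54.8% of all tested genes, and 6 genes were lower and 2 higher. At an unadjusted p under 0.05 there were 5 of the 8, against 3676 of all 14376 tested genes.

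NOTCH1, the receptor on chromosome 9 from 139388896 to 139440238 (hg19, minus strand, 34 exons), had 197 and 333 CPM in the MCF10A libraries and 80.3 and 83.5 CPM in the G12V libraries. Both G12V libraries lay well below both MCF10A libraries, which differed from each other by a ratio of 1.69. MCF10A cells averaged 265 ± 95.8 CPM (SD, n = 2) and G12V cells averaged 81.9 ± 2.26 CPM (SD, n = 2), 3.24-fold less, and the log2 FC was -1.69 (SE 0.28, adjusted p = 0.0175 by edgeR). Without MCF10A replicate 1 the value was -2.0 with an adjusted p of 0.0764 by edgeR, and in that fit no gene at all was DE, the smallest adjusted p being 0.0502, although 2830 genes had an unadjusted p under 0.05. A microRNA gene, MIR4673, lies within NOTCH1 on the same strand.

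NOTCH2, a paralog of NOTCH1 on chromosome 1 from 120454176 to 120612317, had 194 and 198 CPM in MCF10A and 266 and 296 CPM in G12V cells. Here the G12V libraries were the higher ones, with a log2 FC of 0.52 (SE 0.19) that did not pass the threshold (adjusted p = 0.145 by edgeR). NOTCH2 shares a nearly identical stretch with NOTCH2NL, to which reads could have been assigned or from which they could have come, and NOTCH2NL had 37.4 and 38.7 CPM in MCF10A and 40.1 and 59.7 CPM in G12V cells. NOTCH3, on chromosome 19 from 15270444 to 15311792, is a receptor best known from vascular smooth muscle and had few reads. Its levels were 8.32 and 7.88 CPM in MCF10A and 1.75 and 5.98 CPM in G12V cells. The G12V libraries differed from each other by a ratio of 3.41, so the log2 FC of -1.07 had an SE of 0.57 and was not DE (adjusted p = 0.313 by edgeR). Without G12V replicate 2 it was -2.21 and DE (adjusted p = 0.0108 by edgeR), and without G12V replicate 1 it was -0.44.

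The balance between the 2 abundant receptors was therefore read within each library, per kb of transcript. NOTCH1 exceeded NOTCH2 in both MCF10A libraries, by ratios of 1.22 and 2.01. In the G12V libraries the ratios were 0.360 and 0.337, so that NOTCH2 was the more abundant receptor transcript. In DMSO the ratio was 0.817, 0.595 and 1.06, and in Nutlin-3a 1.35, 1.28 and 2.29, above DMSO in each library of the same number. The ratios describe these libraries and were not tested.

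**Figure D2:**
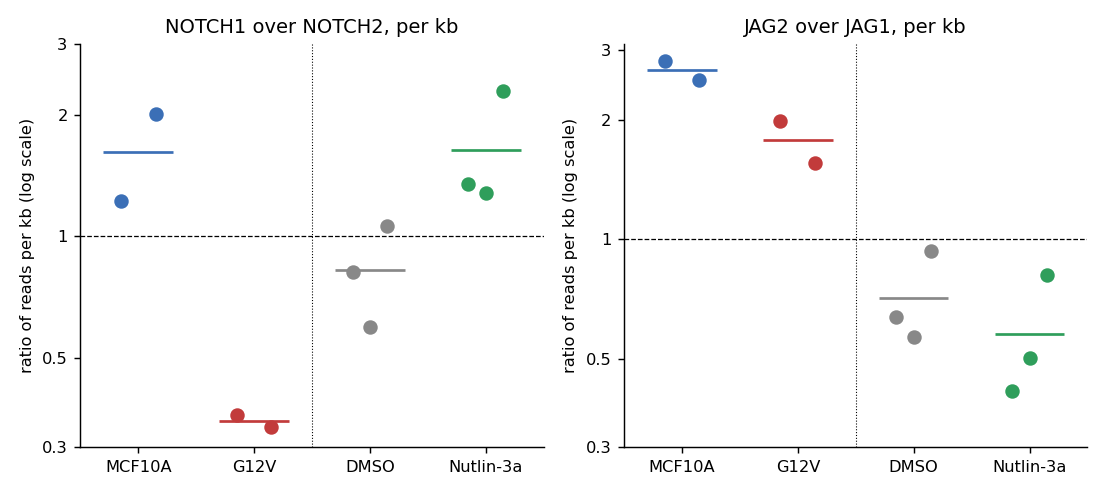
Ratio of NOTCH1 to NOTCH2 and of JAG2 to JAG1, each in CPM per kb of canonical transcript, in every library on a log scale. Points are libraries, bars are group means, the dashed line marks equal levels and the dotted line separates the experiments. The ratio of NOTCH1 to NOTCH2 was 0.360 and 0.337 in the G12V libraries and above 1 in both MCF10A and all 3 Nutlin-3a libraries.

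Of the ligands, JAG2, on chromosome 14 from 105607318 to 105635161, had 171 and 221 CPM in MCF10A and 102 and 94.3 CPM in G12V cells. The G12V libraries lay close together and below both MCF10A libraries. However, parental DMSO cells of the other experiment had 83.9 to 115 CPM, a range that holds both G12V values. For NOTCH1 and DLL1 all DMSO values lay above the G12V values. No test was made between the experiments, which were counted on different annotations. MCF10A cells averaged 196 ± 35.0 CPM (SD, n = 2) and G12V cells averaged 98.0 ± 5.22 CPM (SD, n = 2), 2.0-fold less, with a log2 FC of -1.0 (SE 0.20, adjusted p = 0.0313 by edgeR). This call was the least stable of the 3, since leaving out G12V replicate 2, MCF10A replicate 1 or MCF10A replicate 2 gave adjusted p-values of 0.0931, 0.124 and 0.121 by edgeR, with log2 FCs of -0.95, -1.15 and -0.81. JAG1, on chromosome 20 from 10618332 to 10654694, had 62.4 and 90.0 CPM in MCF10A and 52.6 and 62.2 CPM in G12V cells. The lower MCF10A library lay just above the higher G12V library, and the log2 FC of -0.41 (SE 0.24) was not DE (adjusted p = 0.351 by edgeR). Per kb, JAG2 exceeded JAG1 in all 4 of these libraries, by 2.82 and 2.52 in MCF10A and by 1.99 and 1.56 in G12V cells.

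DLL1, a Delta-like ligand on chromosome 6 from 170591294 to 170599697, showed the largest change of the 8 genes. It had 63 and 389 reads, or 2.86 and 17.1 CPM, in the MCF10A libraries and 3 and 6 reads, or 0.128 and 0.268 CPM, in the G12V libraries. Every G12V value lay far below every MCF10A value, although the MCF10A libraries differed from each other by a ratio of 5.98. Over the pooled reads, 452 against 9, DLL1 was 51.5-fold lower in G12V cells (exact 95% interval 26.9 to 113, counting error only), and the log2 FC in the fit was -5.63 (SE 1.06, adjusted p = 0.0251 by edgeR). It was -3.83 without MCF10A replicate 2 and still DE, and -6.38 without MCF10A replicate 1, where it was not (adjusted p = 0.0653 by edgeR).

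Among 12009 genes tested in both experiments and outside the Notch lists, those closest to DLL1 in pattern were SESN3, TG and FLRT3. Their log2 CPM, centred within each experiment, differed from those of DLL1 by a root mean square of 0.34, 0.40 and 0.42 over the 10 libraries, in which only the MCF10A and G12V libraries spread widely. SESN3, which encodes a stress-responsive regulator of growth signalling, had 7.91 and 24.6 CPM in MCF10A and 0.385 and 0.580 CPM in G12V cells. FLRT3, which encodes a membrane adhesion protein, had 25.8 and 77.7 CPM against 0.727 and 2.32 CPM, and TG, the thyroglobulin gene, had 1.73 and 7.49 CPM against 0.128 and 0.134 CPM. All 3 were, like DLL1, higher in MCF10A replicate 2 than in replicate 1, which their selection for likeness over these same libraries favours.

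HES1, on chromosome 3 from 193853931 to 193856401 (plus strand), encodes a transcriptional repressor and is among the best known direct targets of the RBPJ complex. Its promoter, as given by RefSeq on the later build GRCh38.p14, is shown from 110 to 32 bases before the start, chr3:194136038-194136116 on the plus strand, because this stretch holds the letters TGGGAA, the core of the RBPJ motif, which are in capitals.
HES1: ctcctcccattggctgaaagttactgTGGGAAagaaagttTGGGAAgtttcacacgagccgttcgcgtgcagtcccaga
The matches begin 84 and 70 bases before the start. In the 250 bases before the start, TGGGAA or its reverse complement TTCCCA was present in 7321 of 35116 RefSeq promoters (20.8%) and occurred at least 2 times in 1017 (2.90%). Promoters of 6 members were matched by symbol (NOTCH1, NOTCH2, NOTCH3, JAG1, JAG2 and HES1), and the other 5 held no match in this window. Those of DLL1 and HEY1 were not matched. Such a match describes the sequence and not binding.

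The level of HES1 was 37.5 and 34.2 CPM in MCF10A and 8.89 and 20.8 CPM in G12V cells. Both G12V libraries were lower, but they differed from each other by a ratio of 2.34. The log2 FC of -1.27 (SE 0.41) did not pass the threshold in edgeR's quasi-likelihood test (adjusted p = 0.111), while it did in DESeq2 (adjusted p = 0.0215) and in edgeR's exact test (adjusted p = 0.0296). Without G12V replicate 2 it was -2.01 and DE (adjusted p = 0.00169 by edgeR), and without G12V replicate 1 it was -0.78. HEY1, a related repressor on chromosome 8 from 80676245 to 80680098, had 18 and 19 reads in the MCF10A libraries and 28 and 33 reads in the G12V libraries, or 0.818 and 0.837 against 1.20 and 1.47 CPM. The G12V libraries were the higher ones, the direction opposite to that of HES1, and the log2 FC of 0.69 (SE 0.39) was not DE (adjusted p = 0.351 by edgeR).

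**Figure D3:**
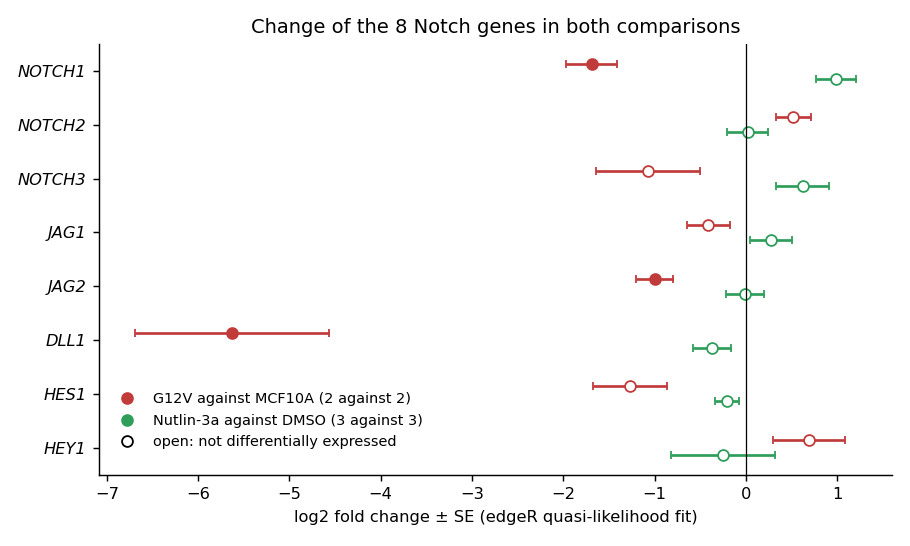
Log2 fold change (log2 FC) of the 8 Notch genes in G12V against MCF10A cells (red, 2 against 2 libraries) and in Nutlin-3a against DMSO (green, 3 against 3 libraries) by edgeR's quasi-likelihood fit, with bars of 1 standard error. Filled points are DE in this fit, which does not pair libraries. They were NOTCH1 (-1.69), JAG2 (-1.0) and DLL1 (-5.63) in G12V cells and none with Nutlin-3a, where NOTCH1 lay at 0.99. With libraries paired by replicate number, NOTCH1 was DE with Nutlin-3a (log2 FC 1.02, adjusted p = 3.01e-05 by edgeR).

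The remaining pathway was read from 56 further genes in 9 roles, of which 48 had enough reads to be tested in MCF10A and G12V cells. In this set 6 were DE and higher and 4 DE and lower, 10 of 48 against 11.0% of all tested genes, and the median log2 FC was -0.074. The DE genes lay mainly among the non-canonical ligands and the HES and HEY family, while no gene of receptor cleavage, ligand endocytosis or the corepressors was DE. All 10 calls were lost without MCF10A replicate 1, where no gene was DE.

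The non-canonical ligands are membrane or secreted proteins that bind Notch receptors and do not count among the canonical JAG and DLL ligands. All 4 of the tested genes of this role were DE. DNER, which encodes a transmembrane protein best known from neurons, had 51.5 and 67.2 CPM in MCF10A and 298 and 392 CPM in G12V cells, a log2 FC of 2.54 (SE 0.25, adjusted p = 0.0038 by edgeR). EGFL7, which encodes a secreted protein known from endothelium, had 2.77 and 3.70 CPM against 10.1 and 14.99 CPM (1.95 on the log2 scale, SE 0.35). DLK2 fell from 49.2 and 99.9 CPM to 7.78 and 10.2 CPM (-3.05 on the log2 scale, SE 0.39, adjusted p = 0.00803 by edgeR), and its log2 FC was -2.46 without MCF10A replicate 2. It overlaps ABCC10 on the opposite strand, and the strand setting of the counting is not given in the sources used here. MFAP5, which encodes a protein of elastic microfibrils, fell from 3.68 and 1.98 CPM to 0.470 and 0.491 CPM (-2.54 on the log2 scale, SE 0.49). In each of these 4 genes both G12V libraries lay on the same side of both MCF10A libraries. In parental DMSO cells of the other experiment DLK2 had only 13.4 to 15.95 CPM, above G12V cells but below both MCF10A libraries. DNER had 96.9 to 163 CPM there, EGFL7 2.74 to 4.295 CPM and MFAP5 0.43 to 1.55 CPM. These differences between the experiments were not tested. Of the canonical family, DLL3 had a log2 FC of 0.56 that was not DE, and NOTCH4 and DLL4 had too few reads to be tested.

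LFNG, on chromosome 7 from 2552163 to 2568063, encodes the Fringe glycosyltransferase that alters which ligands a receptor responds to. It had 9.36 and 12.9 CPM in MCF10A and 1.71 and 0.580 CPM in G12V cells, all G12V values below all MCF10A values, and a log2 FC of -3.27 (SE 0.55, adjusted p = 0.0173 by edgeR) that reached -4.25 without G12V replicate 1. It was the lowest of the 5 glycosylation genes, of which RFNG was the highest at 0.32, and the other 4 were not DE. Ligand endocytosis ranged from NEURL1B at -0.87 to MIB1 at 0.042 on the log2 scale. Of the 9 genes of receptor cleavage, 7 had negative values, from ADAM10 at -0.62 to ADAM17 at 0.24, and none was DE by edgeR's quasi-likelihood test. An unadjusted p under 0.05 was found for 3 of the 9, near the share of 3676 in 14376 over all tested genes.

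ITCH, which encodes an E3 ubiquitin ligase for Notch and many other proteins, had 134 and 130.2 CPM in MCF10A and 1189 and 1320.0 CPM in G12V cells. The libraries of each group lay close together, and the log2 FC was 3.25 (SE 0.24, adjusted p = 0.00159 by edgeR). It was the only DE gene of the 8 tested for receptor turnover, in which DTX4 was the lowest at -1.60 (adjusted p = 0.085 by edgeR). DTX4 was DE in DESeq2 (adjusted p = 0.00498) and in edgeR's exact test (adjusted p = 0.0104). Its log2 FC was -2.23 and DE without G12V replicate 2 (adjusted p = 0.00399 by edgeR), and it was -1.05 without MCF10A replicate 2 and -1.17 without G12V replicate 1, where it was not DE. In the nuclear complex, the histone acetyltransferase gene KAT2B had 8.05 and 9.56 CPM in MCF10A and 17.2 and 20.6 CPM in G12V cells, a log2 FC of 1.10 (SE 0.25, adjusted p = 0.0469 by edgeR) close to the threshold. Its call was also lost without G12V replicate 2 or MCF10A replicate 2 and without the filter on low counts (adjusted p = 0.0552 by edgeR). RBPJ itself had 88.6 and 84.8 CPM in MCF10A and 80.9 and 72.2 CPM in G12V cells, a log2 FC of -0.18 (SE 0.17), and MAML2 was the lowest of the complex at -0.27. Of the corepressors CIR1 was the lowest at -0.56, and none was DE.

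Among the other HES and HEY genes and NRARP, a feedback inhibitor induced by Notch, the DE genes moved in both directions. HES2 had the lowest log2 FC of the 48 genes, with 94.9 and 68.9 CPM in MCF10A and 4.23 and 7.003 CPM in G12V cells (-3.87, SE 0.34, adjusted p = 0.00294 by edgeR). HEY2 had 0 reads in both MCF10A libraries and 14 and 20 reads in the G12V libraries, at least 5.55-fold higher against a floor of 3 reads per library (adjusted p = 0.0198 by edgeR). Its mean of 0.745 CPM in G12V cells remained far below that of HES1, and it had too few reads to be tested without G12V replicate 2 or under a minimum of 1 CPM. However, parental DMSO cells of the other experiment had 0.664 to 0.817 CPM of HEY2, between the G12V values of 0.599 and 0.892 CPM. No test was made between the experiments. NRARP had 7.77 and 6.61 CPM in MCF10A and 15.7 and 18.5 CPM in G12V cells, a log2 FC of 1.25 (SE 0.26, adjusted p = 0.0339 by edgeR), and its call was lost without G12V replicate 2 and without either MCF10A library. HES7 lay just outside the threshold, with 8.64 and 5.46 CPM against 16.4 and 18.4 CPM and a log2 FC of 1.3 (SE 0.31, adjusted p = 0.0514 by edgeR), and it was DE in DESeq2 and in edgeR's exact test.

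**Figure D4:**
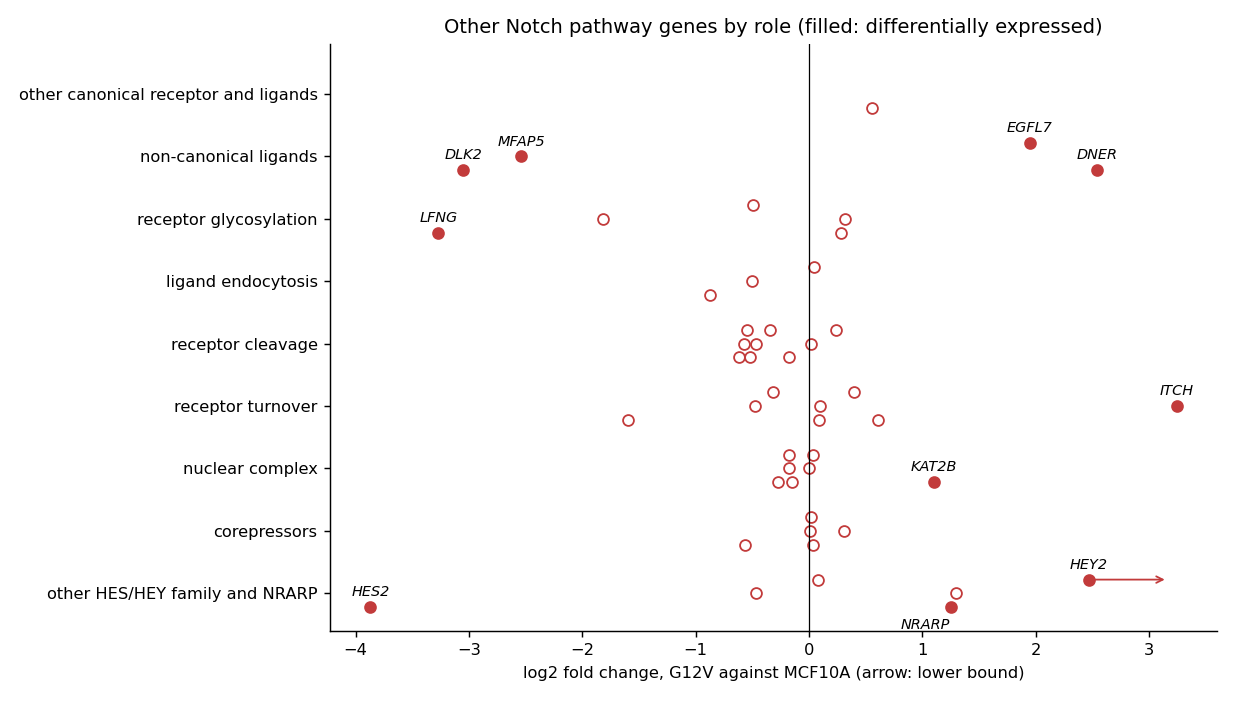
Log2 fold change (log2 FC) in G12V against MCF10A cells of the 48 tested genes among 56 further Notch pathway genes, grouped by role. Filled and named points are DE and open points are not, small vertical offsets only separate points, and HEY2 stands at its lower bound. Values reached from -3.87 for HES2 to 3.25 for ITCH, and no gene of receptor cleavage or the corepressors was DE.

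With Nutlin-3a for 4 h, NOTCH1 was the Notch gene with the largest difference, and it did not pass the threshold in edgeR's quasi-likelihood test unless libraries were paired by their replicate number or no filter on low counts was used. In the main fit, which does not pair libraries, no member was DE, against 0.170% of all tested genes (23 genes, with 0.155% higher and 0.0148% lower). DESeq2 and edgeR's exact test each called 1 member, NOTCH1, which was also the only one with an unadjusted p under 0.05. The median log2 FC was 0.0025 over the 8 genes, 4 of them positive and 4 negative, and 0.0066 over all tested genes. NOTCH1 was higher and DLL1 lower without overlap between the groups, as were 8.07% of all tested genes in either direction, and the other 6 overlapped.

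NOTCH1 had 106, 136 and 188 CPM in DMSO and 240, 276 and 340 CPM in Nutlin-3a. All Nutlin-3a libraries lay above all DMSO libraries, and those of the same number differed by ratios of 2.27, 2.03 and 1.81. The mean was 143 ± 41.7 CPM (SD, n = 3) against 285 ± 51.0 CPM (SD, n = 3), 1.99-fold higher. The log2 FC of 0.99 (SE 0.22) exceeded that of 99.5% of the tested genes, with an adjusted p of 0.298 by edgeR. With the replicate number as a block, in which 1.22% of all tested genes were DE, it was 1.02 (SE 0.0807, adjusted p = 3.01e-05 by edgeR). On the opposite strand lies the non-coding gene RP11-413M3.4, which had 1 to 10 reads in these libraries.

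The other receptors showed smaller differences. NOTCH2 had 155, 273 and 213 CPM in DMSO and 212, 259 and 178 CPM in Nutlin-3a, with overlapping groups and a log2 FC of 0.018 (SE 0.22), which was -0.014 on library totals alone. NOTCH2NL had 4.15 to 8.43 CPM in this experiment. NOTCH3 had 3.15, 4.17 and 2.16 CPM in DMSO and 4.68, 6.02 and 3.88 CPM in Nutlin-3a. It was higher in 3 of 3 pairs, by ratios of 1.48, 1.44 and 1.80, while the groups overlapped, and the log2 FC of 0.62 (SE 0.29) was DE neither without the block (adjusted p = 1.0 by edgeR) nor with it (adjusted p = 0.101 by edgeR).

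Of the ligands, JAG1 had 135, 209 and 123 CPM in DMSO and 179, 240 and 150.0 CPM in Nutlin-3a. It was also higher in 3 of 3 pairs, by ratios of 1.32, 1.15 and 1.22, while the groups overlapped, and its log2 FC of 0.28 (SE 0.23) was not DE with the block either (adjusted p = 0.0773 by edgeR). JAG2 had 83.9, 115 and 111 CPM against 72.2, 117 and 118 CPM, a log2 FC of -0.013 (SE 0.21) with no common direction. DLL1 had 4.32, 3.93 and 3.79 CPM in DMSO and 2.65, 3.16 and 3.49 CPM in Nutlin-3a, from 43 to 78 reads per library. It was lower in 3 of 3 pairs with a log2 FC of -0.37 (SE 0.21) that was not DE (adjusted p = 1.0 by edgeR, and 0.464 with the block).

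Neither target was DE with Nutlin-3a. HES1 had 39.4, 30.2 and 34.4 CPM in DMSO and 28.6, 32.6 and 28.8 CPM in Nutlin-3a, a log2 FC of -0.21 (SE 0.13) with a higher value in only 1 of 3 pairs. HEY1 had 53, 15 and 23 reads in DMSO and 30, 33 and 7 reads in Nutlin-3a, a log2 FC of -0.25 (SE 0.57), and its direction differed between pairs. The adjusted p with the block was 0.522 for HES1 and 0.858 for HEY1 by edgeR. That the effects on NOTCH1 and on its targets differ was not tested.

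**Figure D5:**
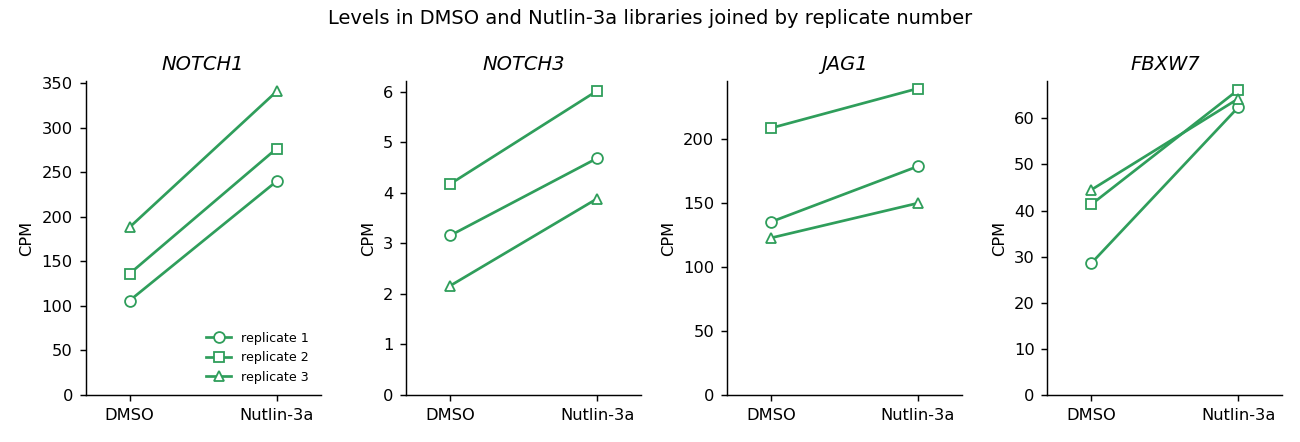
CPM of NOTCH1, NOTCH3, JAG1 and FBXW7 in the 3 DMSO and 3 Nutlin-3a libraries, with lines joining libraries of the same replicate number and axes starting at 0. All lines slope upwards, by ratios of 1.81 to 2.27 for NOTCH1, 1.44 to 1.80 for NOTCH3, 1.15 to 1.32 for JAG1 and 1.44 to 2.18 for FBXW7. In the main fit, which has no block, none of the 4 was DE by edgeR's quasi-likelihood test.

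Of the 56 further pathway genes, 47 were tested with Nutlin-3a and none was DE in the main fit. FBXW7 was DE in DESeq2, in edgeR's exact test and without the filter on low counts. FBXW7 and HEY2 had an unadjusted p under 0.05, 2 of 47 genes against 463 of all 13529 tested genes. The median log2 FC of the 47 genes was -0.0015. FBXW7, which encodes the F-box protein that marks the Notch intracellular domain for degradation, had 28.6, 41.4 and 44.5 CPM in DMSO and 62.5, 66.2 and 64.3 CPM in Nutlin-3a. All Nutlin-3a libraries lay above all DMSO libraries, and the log2 FC of 0.75 (SE 0.16, adjusted p = 0.288 by edgeR) was 0.77 with the block (adjusted p = 0.00278 by edgeR). HES2 had 21.2, 16.4 and 57.6 CPM in DMSO and 34.9, 24.1 and 73.1 CPM in Nutlin-3a. Its groups overlapped because replicate 3 was high in both, but the ratios within pairs were 1.64, 1.46 and 1.27, and the log2 FC of 0.47 (SE 0.52) became 0.53 and DE with the block (adjusted p = 0.0154 by edgeR). HEY2 was lower in 3 of 3 pairs, at 0.664, 0.798 and 0.817 CPM in DMSO against 0.493, 0.434 and 0.263 CPM in Nutlin-3a, with a log2 FC of -0.91 (SE 0.37) that was not DE.

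The other roles varied little with Nutlin-3a. Among the non-canonical ligands the log2 FCs ran from -0.49 for MFAP5 to 0.11 for EGFL7, in glycosylation from -0.39 for LFNG to 0.20 for MFNG, and in ligand endocytosis from -0.0015 for NEURL1B to 0.23 for MIB2. In receptor cleavage ADAM17 was the highest at 0.069, and the corepressors lay within -0.024 for SPEN and 0.10 for HDAC1. In receptor turnover NUMBL was the lowest at -0.25, and in the nuclear complex the values ran from -0.38 for MAML3 to 0.17 for EP300. DLL3 was at -0.025. ITCH, which rose in G12V cells, had 95.1 to 106.5 CPM over the 6 libraries of this experiment.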

How the data were processed

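RNA was sequenced on poly(A)-selected libraries of 10 samples, grouped by the labels. Per the study's methods the authors aligned the reads to hg19 with TopHat, used HTSeq for counts per gene, which they deposited raw, without normalization, as 2 tables of 26256 and 55736 genes. The annotations, the strand setting and the treatment of overlapping genes are not given in the sources used here. Overlapping genes therefore remain uncertain.

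Each comparison was fitted from the deposited counts with edgeR 4.0.16 (R 4.3.3), separately for each table: filterByExpr, TMM, the quasi-likelihood F-test with a prior count of 0.125, and Benjamini-Hochberg adjustment over the 14376 and 13529 tested genes. The size of the log2 fold change divided by the root of F gives the standard error. Results were recomputed with DESeq2 1.42.0, with edgeR's exact test, relative log expression factors, library totals alone, no filter, a minimum above 1 CPM in 2 or more libraries, the replicate number as a block, and each library left out in turn. The fits were tested on simulated counts. Replicates are described as biological with no mention of separate cultures, so p-values may in part measure technical spread. No libraries were duplicates (chi-square per degree of freedom 23.4 to 80.8).

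With Nutlin-3a, deviations from the group means over 12555 genes had correlations of 0.663, 0.713 and 0.720 for same-numbered libraries. The values for the others, -0.527 to -0.231, are pushed below 0 by taking deviations from group means and add little. Same-numbered libraries thus deviated together, and they are the pairs named in the text. The labels do not say that the numbers mark pairs.

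The 8 genes and all lists were chosen with earlier results of these data known. The text names all 8, every further pathway gene that was DE, the lowest and highest of each role, and the 3 genes most like the member with the largest change (log2 CPM with 0.1 CPM added). Some genes that this rule selects are not reported here. HES7 and RBPJ are named in addition, chosen after their values were seen. Lengths are those of Ensembl canonical transcripts (GENCODE v44lift37). Promoters are from RefSeq. Intervals and floors were computed from read counts and reflect counting error alone, not the spread between libraries. The reads also lack molecular identifiers. Python 3.11.15 was used for tables and figures.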

Additional observations from a re-analysis of the deposited data

How the results depend on the processing

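In G12V against MCF10A cells the 1575 DE genes became 2526 with edgeR's exact test, and 0 to 2129 when 1 library was left out, the 0 being without MCF10A replicate 1, where the smallest adjusted p was 0.0502. The 3 members called ranged from 0 to 4 and the 10 other pathway genes from 0 to 11 in those fits. HRAS ranged from 2.89 to 3.19 on the log2 scale and was not DE without MCF10A replicate 1 (3.15, adjusted p = 0.0775 by edgeR). In these libraries the replicate numbers are shared too, but the labels do not say that they mark pairs. Same-numbered libraries correlated at 0.568 over 12879 genes. With 2 libraries per group the value for the others, -0.568, is its mirror image by construction and adds nothing. A block on the number gave 4158 DE genes (28.9% of those tested), 6 members (with NOTCH2, NOTCH3 and HES1 added) and 19 other pathway genes.

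With Nutlin-3a the 23 DE genes became 87 with DESeq2, 83 with edgeR's exact test, 99 without the filter and 165 with the replicate block, and 7 to 11 when 1 library was left out. The members called went from 0 to 1, NOTCH1, with DESeq2 (adjusted p = 0.00214), edgeR's exact test (adjusted p = 0.00645), no filter (adjusted p = 1.54e-08) and the block (adjusted p = 3.01e-05). The other pathway genes called went from 0 to 1, FBXW7, with DESeq2 (adjusted p = 0.0127), edgeR's exact test (adjusted p = 0.0131) and no filter (adjusted p = 2.95e-04), and to 2 with the block, FBXW7 and HES2. The block changed no other call named here for Nutlin-3a, and the cause of these shifts was not tested.

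Signs changed only in values that were not DE. SPEN with Nutlin-3a was 0.015 with the block and NOTCH2 was -0.014 on library totals alone. With 1 library left out, MIB1 ranged from -0.22 to 0.26 and MAML2 from -0.76 to 0.088 in G12V cells. With Nutlin-3a, NOTCH2 ranged from -0.17 to 0.23, JAG2 from -0.14 to 0.19, HEY1 from -0.57 to 0.36, DLL3 from -0.12 to 0.11, EGFL7 from -0.39 to 0.32, NEURL1B from -0.21 to 0.17, ADAM17 from -0.021 to 0.16, SPEN from -0.25 to 0.12 and HES2 from -0.11 to 1.22. Of the values of single genes under these alternatives, 588 kept their sign and their side of the threshold, 23 passed it, 20 lost it and 25 changed sign. With 2 libraries per group, 1 library can decide a call, and a lone library left in a group was assumed to vary like the others. Depth limits HEY1, NOTCH3, DLL1 and HEY2.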

Other observations

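ITCH was read beside its neighbours, a comparison chosen after its value was seen. Of the 5 nearest tested genes on each side of it on chromosome 20, from CHMP4B to NCOA6, none was DE in G12V cells, and their log2 fold changes ran from -0.37 for AHCY to 0.75 for TP53INP2, against 3.25 for ITCH. The nearest neighbours, AHCY and DYNLRB1, had 425 and 544 CPM and 60.0 and 85.0 CPM in MCF10A and 341 and 408 CPM and 65.4 and 79.7 CPM in G12V cells.

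The order of the Jagged ligands differed between the experiments. Per kb, JAG2 over JAG1 was 2.82 and 2.52 in MCF10A, but 0.638, 0.567 and 0.932 in DMSO and 0.415, 0.501 and 0.812 in Nutlin-3a, all parental cells. HEY2, at 0 reads in both MCF10A libraries, had 0.664 to 0.817 CPM in DMSO. These experiments were counted on different annotations and were not compared by a test.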
